A study of Mus musculus with 3 samples.

Results

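Condensin is the ring-shaped protein complex that folds chromatin into compact mitotic chromosomes, and Esco2 is the acetyltransferase that locks cohesin around sister chromatids during DNA replication. The transcripts of 8 condensin subunits and of Esco2 were followed across the 3 arrays of a keratin 15 knockdown in CLDE cells, a dental epithelial line derived from the mouse cervical loop, the stem cell niche of the growing incisor. The 9 genes were chosen with earlier results of these data known. Their probes were taken by name, as every probe whose gene name on the array was one of them. These were 17 probes of 56598 with values on all arrays, and 9 of 24812 named genes. The groups were an siRNA against Krt15 (siKrt15), a non-targeting control siRNA (siNeg) and a mock transfection, each harvested at 72 h, with 1 array and so 1 culture of 1 cell line per group. Groups follow the titles and source names. The descriptions and treatment fields of the siKrt15 and siNeg arrays name the opposite group, and under those every siKrt15 minus siNeg difference below would turn its sign. The Krt15 probe (NM_008469) read 267 in siKrt15, against 1647 in siNeg and 2638 in mock, which goes with the titles. No difference between the arrays has a replicate check, and no test across arrays was possible. The error given is the SD that the scanner's error model assigns to a difference, which leaves out the variation between cultures. For a mean over probes or genes it takes their errors as independent, and it leaves out any disagreement between them.

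Condensin comes in 2 forms that share an ATPase core of Smc2 and Smc4. Condensin I adds the HEAT-repeat subunits Ncapd2 and Ncapg and the kleisin Ncaph, which closes the ring. It stays in the cytoplasm through interphase and reaches the chromosomes after the nuclear envelope breaks down. Condensin II adds the related subunits Ncapd3, Ncapg2 and Ncaph2, is nuclear throughout the cycle and starts compaction in prophase. Esco2 acetylates the cohesin subunit Smc3 at replication forks, while its relative Esco1 acts on cohesin through the whole cycle. Loss of ESCO2 causes Roberts syndrome in humans.

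Each array probe is a DNA oligonucleotide of 60 bases. The 4 shown here belong to 2 condensin genes with large differences (Smc2 and Ncaph), the condensin gene with the smallest (Ncaph2) and the gene whose probes disagree (Ncapg). Each has at least 1 reading frame without a stop codon. Coordinates are those of the array files on mm9, and no exon or UTR annotation of that build was used. The Smc2 probe lies at chr4:52464211-52470154 (plus strand) and starts at base 1150 of its transcript. It covers 5944 bases of genome, so it crosses an intron. The Ncaph probe lies at chr2:126934282-126934341 (minus strand, base 1817), and the dimmer Ncapg probe at chr5:46088110-46088169 (plus strand, base 3094). The brighter Ncaph2 probe lies at chr15:89201188-89201330 (plus strand, base 1499) and covers 143 bases of genome. None holds a motif of interest, so all are in lower case.
Smc2 probe: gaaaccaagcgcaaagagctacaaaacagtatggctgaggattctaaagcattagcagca
Ncaph probe: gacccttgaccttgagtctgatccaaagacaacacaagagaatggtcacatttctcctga
Ncapg dimmer probe: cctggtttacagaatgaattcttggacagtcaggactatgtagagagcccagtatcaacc
Ncaph2 brighter probe: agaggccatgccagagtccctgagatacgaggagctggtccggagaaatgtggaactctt

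Smc2 and Ncaph were higher in siKrt15 than in both controls by well over 2-fold, though Ncaph fell just under 2-fold with normexp background correction. Esco2, on 1 dim probe above background in siKrt15 only, has lower bounds of 3.66-fold and 3.82-fold and no measured difference. Smc4, Ncapd2, Ncapd3 and Ncapg2 were higher by 1.33-fold to 1.53-fold, and Ncaph2 lay close to the control level. The 2 Ncapg probes went apart. Against siNeg, 3 of the 8 members measured (Smc2, Ncapg and Ncaph) passed 2-fold upwards and 0 downwards. The background for this was 1.70% of all 17121 measured genes upwards and 2.0% downwards, or 1.07% upwards in the brighter 8561 of them. The members were picked with earlier results of these data known, so an excess over this background is not a test. The median of the 8 was 0.60 on the log2 scale, against −0.08 for all genes. Against mock, 2 of 8 (Smc2 and Ncaph) passed 2-fold upwards and 0 downwards, with a median of 0.61 against −0.06 for all genes. There the background was 2.18% upwards and 1.24% downwards, and 1.40% upwards in the brighter 8565 genes. At 1.5-fold, 5 of 8 members passed upwards in each comparison, where 4.80% of all genes did against siNeg and 5.83% against mock. Both comparisons share the siKrt15 array, so their values are given side by side and not as independent support. RNA was taken from whole cultures, in which a changed number of cells that make a transcript and a changed amount per cell cannot be told apart.

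**Figure D1:**
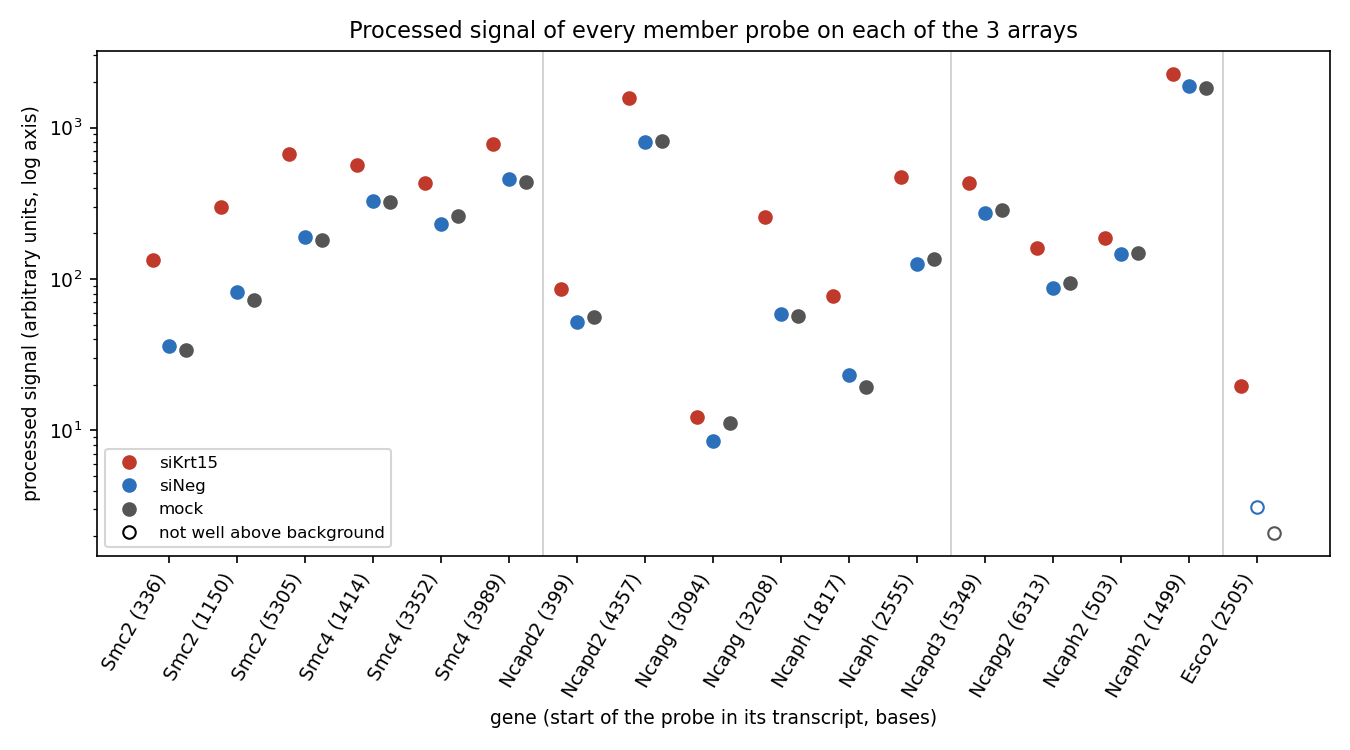
Processed signal (vertical log axis, arbitrary units) of all 17 probes of the 9 genes on the siKrt15, siNeg and mock arrays, with open circles where a probe was not well above background. The signals are not scaled, and siKrt15 had the highest 75th percentile (216, against 180 in siNeg and 191 in mock). For every probe the siKrt15 point is the highest of the 3 in these signals. After scaling, the dimmer Ncapg probe stood at −0.05 for siKrt15 minus mock on the log2 scale. Esco2 is above background in siKrt15 only, at 19.7.

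The ATPase pair did not move by the same amount. The probe of Smc2 at base 1150 read 300 in siKrt15, against 81.4 in siNeg and 72.4 in mock. The probe at base 5305 read 671 in siKrt15, 188 in siNeg and 180 in mock, and that at base 336 read 134 in siKrt15, 36.0 in siNeg and 34.1 in mock. On each probe the siKrt15 value was far above both controls, and the controls lay close together. Signals were scaled by each array's 75th percentile (216 in siKrt15, 180 in siNeg and 191 in mock) before differences were taken. The 3 log2 differences against siNeg were 1.64, 1.62 and 1.57, and their mean was 1.61 ± 0.12 (error-model SD), or 3.05-fold. Against mock it was 1.80 ± 0.12, or 3.48-fold. Of all genes measured, 0.461% had a larger difference than Smc2 in either comparison.

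Smc4, the partner ATPase, read 565 in siKrt15, 326 in siNeg and 320 in mock on its probe at base 1414. Its other probes read 431 and 781 in siKrt15, 229 and 456 in siNeg, and 262 and 437 in mock. Again siKrt15 was the highest array on each probe, but the mean log2 difference was only 0.57 ± 0.12 against siNeg (1.48-fold) and 0.62 ± 0.12 against mock (1.53-fold). All 3 probes of Smc4 lay between 0.52 and 0.65 against siNeg, below the lowest probe of Smc2. The difference against siNeg was exceeded by 5.01% of genes.

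**Figure D2:**
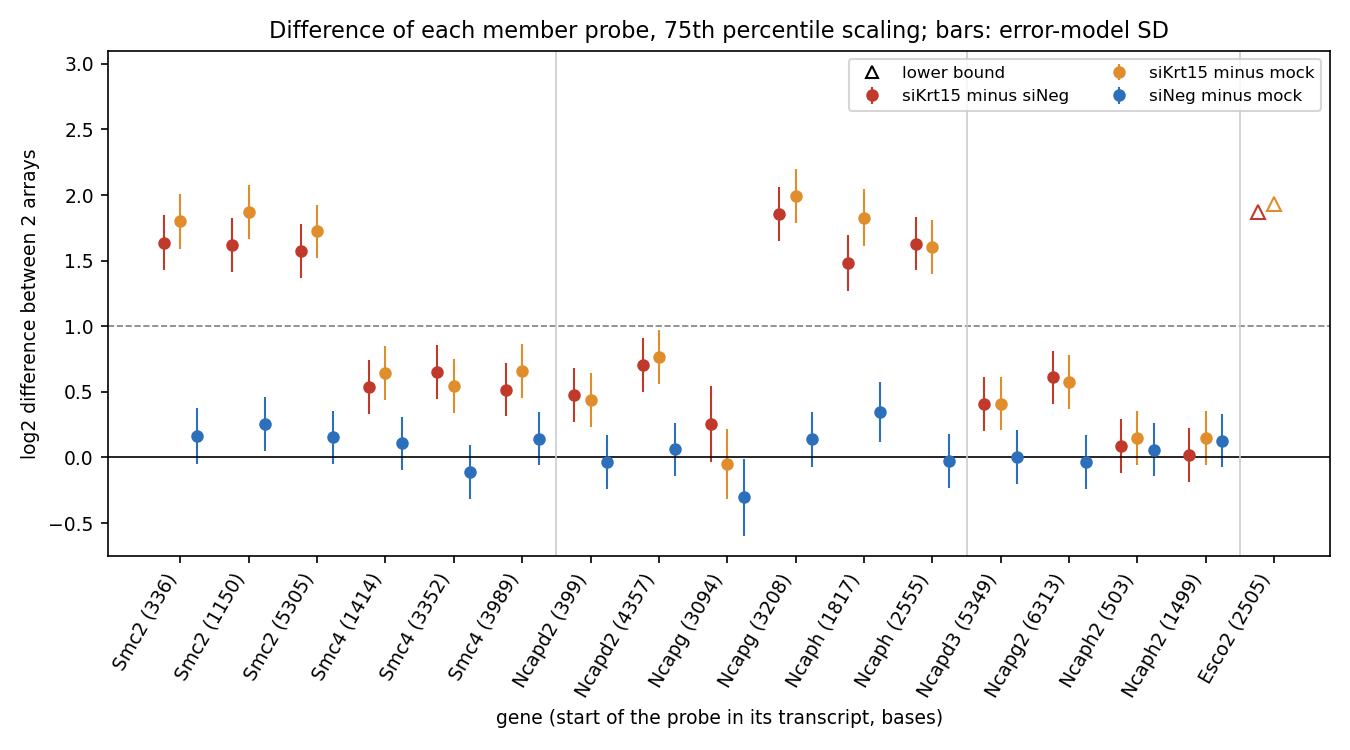
Log2 difference (vertical axis) of each of the 17 probes for siKrt15 minus siNeg, siKrt15 minus mock and siNeg minus mock, with bars for the error-model SD, open triangles for lower bounds and a dashed line at 2-fold. The Smc2, Ncaph and brighter Ncapg probes stand between 1.48 and 1.99 against the controls, and the Ncaph2 probes between 0.02 and 0.15.

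Among the condensin I subunits, the kleisin Ncaph had the highest mean over its probes. With the brightest probe of each gene, or with a stricter filter on dim probes (a signal of at least 20), Ncapg stood above it. The brighter probe of Ncaph (base 2555) read 468 in siKrt15, 126 in siNeg and 136 in mock. Its dimmer one (base 1817, printed above) read 77.5 in siKrt15, 23.1 in siNeg and 19.3 in mock. Both probes put siKrt15 more than 3-fold above the controls in raw signal. The log2 difference of Ncaph was 1.56 ± 0.15 against siNeg (2.94-fold) and 1.72 ± 0.15 against mock (3.28-fold). With normexp background correction, which adds an offset of 50 and so compresses dim genes, it was 0.93 and 0.99, just under 2-fold.

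Ncapg, a HEAT-repeat subunit, depends on the probe. The brighter one (NM_019438, base 3208) read 256 in siKrt15, 59.0 in siNeg and 56.8 in mock, with log2 differences of 1.86 ± 0.21 and 1.99 ± 0.21 from siNeg and mock. The dimmer one (ENSMUST00000134090, base 3094, printed above) read 12.2 in siKrt15, 8.51 in siNeg and 11.1 in mock, where the lowest signal well above background was 4.51, 4.49 and 4.56 on the same arrays. Its log2 differences were 0.25 ± 0.29 from siNeg and −0.05 ± 0.27 from mock, within 1 error-model SD of 0. The mean over both probes was 1.06 against siNeg and 0.97 against mock, on either side of the 2-fold threshold. Under the stricter filter only the brighter probe is left, and with normexp the mean was 0.58 and 0.62.

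Ncapd2, the other HEAT-repeat subunit, read 1577 in siKrt15, 808 in siNeg and 821 in mock on its brighter probe (base 4357). The dimmer probe (ENSMUST00000186561, base 399) read 85.9 in siKrt15, 51.7 in siNeg and 56.0 in mock. Both were highest in siKrt15. The gene's log2 difference was 0.59 ± 0.15 against siNeg and 0.60 ± 0.15 against mock, or 1.5-fold and 1.52-fold.

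The condensin II subunits were closer to the controls. Ncapg2 read 159 in siKrt15, 87.0 in siNeg and 94.5 in mock on its single probe, a log2 difference of 0.61 ± 0.21 against siNeg and 0.57 ± 0.20 against mock. Ncapd3 read 431 in siKrt15, 271 in siNeg and 286 in mock, also on 1 probe, with 0.41 ± 0.20 in both comparisons. These differences were about 3 and 2 error-model SDs, which leave out the variation between cultures. Of all genes, 4.51% had a larger difference than Ncapg2 against siNeg and 6.04% against mock. For Ncapd3 these shares were 8.43% and 9.78%. Again siKrt15 was the highest array on both probes.

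Ncaph2, the kleisin of condensin II, was the member with the smallest difference. Its brighter probe read 2269 in siKrt15, 1868 in siNeg and 1812 in mock, and its dimmer one 185 in siKrt15, 145 in siNeg and 148 in mock. That excess is of the order of the difference between the arrays' 75th percentiles. After scaling, the log2 difference was 0.05 ± 0.14 against siNeg and 0.15 ± 0.14 against mock, and 32.6% and 26.0% of all genes had larger ones. It stayed above 0 in each of the 10 other settings, from 0.01 to 0.36 against siNeg, with the top value under E1A spike-in scaling.

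Set against each other, the 3 condensin I subunits had a mean log2 difference from siNeg of 1.07 (2.10-fold) and the 3 condensin II subunits of 0.36 (1.28-fold). The gap was 0.71 ± 0.14 (error-model SD, which leaves out the spread between subunits and between probes). Against mock the means were 1.1 and 0.38, with a gap of 0.72 ± 0.14. The forms overlapped, since Ncapd2 of condensin I, at 0.59 against siNeg, lay beside Ncapg2 of condensin II, at 0.61. A shift common to a whole array cancels in this gap. It was 0.38 and 0.42 with normexp and 1.05 and 1.08 with the brightest probe of each gene. With 3 genes in each form and 1 array per group the gap is a description, with no test. Smc2 and Smc4, which serve both forms, averaged 1.09 against siNeg and 1.21 against mock.

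Esco2 rests on 1 probe (NM_028039) at chr14:66438198-66438257 on mm9, minus strand, starting at base 2505. It read 19.7 in siKrt15 and was well above background there, against 3.11 in siNeg and 2.10 in mock, where it was not well above background. With the lowest signal well above background put in place of each control, the bounds for Esco2 were at least 3.66-fold higher against siNeg and, against mock, at least 3.82-fold. Of 252 genes above background in siKrt15 and in neither control, 1 had a higher bound than Esco2 against siNeg and 1 against mock. All 252 were picked for a signal in siKrt15 only, so this rank is a description and not support for a difference. Of the 252, 19 had a bound of at least 2-fold against both controls, which is 0.108% of all 17607 genes above background in siKrt15. Only the 252 could have such a bound, since the rest were above background in at least 1 control. The 0.108% is thus lowered by that filter and does not show Esco2 to be rare. Its relative Esco1 was measured by 4 probes and lay at 0.06 ± 0.14 against siNeg, with probes from −0.25 to 0.33, and at −0.09 against mock.

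The controls differed little in these genes, as in most others. In siNeg against mock, 0 of 8 measured members passed 2-fold in either direction. That is near the share over all genes, where 0.356% of 17416 did so upwards and 0.0459% downwards. Log2 differences ran from −0.08 ± 0.18 (Ncapg) to 0.19 ± 0.12 (Smc2, error-model SD). The condensin I and II means were 0.03 and 0.02. Smc2 kept its sign in all 10 other settings, and each of the other measured members changed sign in at least 1. Spike-in scaling was the only such setting for Smc4, Ncapd2 and Ncaph2. It was also such a setting for Ncaph and Ncapd3. Ncaph turned negative with the stricter filter and the brightest probe as well, and Ncapd3 with quantile normalization and the trend removed.

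The condensin genes were then set beside lists of related genes. The cohesin list holds the ring subunits and the factors that load, acetylate, protect and cut the ring. In siKrt15 against siNeg, 4 of its 21 genes passed 2-fold upwards and 0 downwards, and the list median was 0.07. These 4 were Cdca5 (sororin, which protects acetylated cohesin) at 1.94, Sgo1 (shugoshin, which guards centromeric cohesion) at 1.78, Dscc1 (a subunit of a clamp loader used when cohesion is set up) at 1.44 and Espl1 (separase, the protease that cuts the ring) at 1.40. Against mock they were at 2.15, 1.97, 1.41 and 1.83, and 5 of 21 passed 2-fold upwards, against 2.18% of all genes. The fifth was the helicase Ddx11 at 1.11. Of the core ring subunits, Smc1a was at 0.05 ± 0.14, Rad21 at 0.19 ± 0.20 and Smc3, the substrate of Esco2, at 0.40 ± 0.14 against siNeg (error-model SD). Against mock they were at −0.04, 0.21 and 0.36. Smc3 was thus higher by about as much as Ncapd3. Separase's inhibitor securin (Pttg1) was at −0.04 and −0.17. Dscc1 rests on 2 probes at 0.92 and 1.97.

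The SMC5/6 complex, another SMC ring, which acts in DNA repair, had 0 of 8 genes past 2-fold in either direction or comparison. Its median was 0.17 against siNeg and 0.12 against mock. The largest differences from siNeg were Nsmce1 at 0.49, Smc5 at −0.34, Slf1 at 0.32 and Slf2 at −0.29. Of 4 meiotic cohesin genes, 2 were measured, and Smc1b and Rad21l were not well above background on any array. Stag3 was at 0.52 against siNeg but −0.08 against mock, and Rec8 at −0.26 and 0.04.

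Genes that work with condensin on mitotic chromosomes were higher as a list. In siKrt15 against siNeg, 10 of 13 such genes passed 2-fold upwards and 0 downwards, and the list median was 1.53. Against mock it was 10 of 13 and 1.65. The list was written with earlier results of these data known. The chromokinesin Kif4 was at 2.64 ± 0.32, on 1 dim probe reading 42.6 in siKrt15, 5.71 in siNeg and 9.18 in mock. Birc5, which encodes survivin, a chromosomal passenger protein, was at 2.04, cyclin B2 (Ccnb2) at 2.03 and the chromosome surface protein gene Mki67 at 1.99. Mki67, a common marker of cycling cells, read 501 in siKrt15, against 105 in siNeg and 98.0 in mock. The share of cycling cells was not measured, and its part in the condensin differences was not tested. Smc2 and Ncaph, at 1.61 and 1.56, lay just above the median of this list, while Smc4, Ncapd2 and the condensin II subunits lay below that median. The lowest of the list were Mcph1, an inhibitor of condensin II, at 0.36 and topoisomerase II beta (Top2b) at 0.11.

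**Figure D3:**
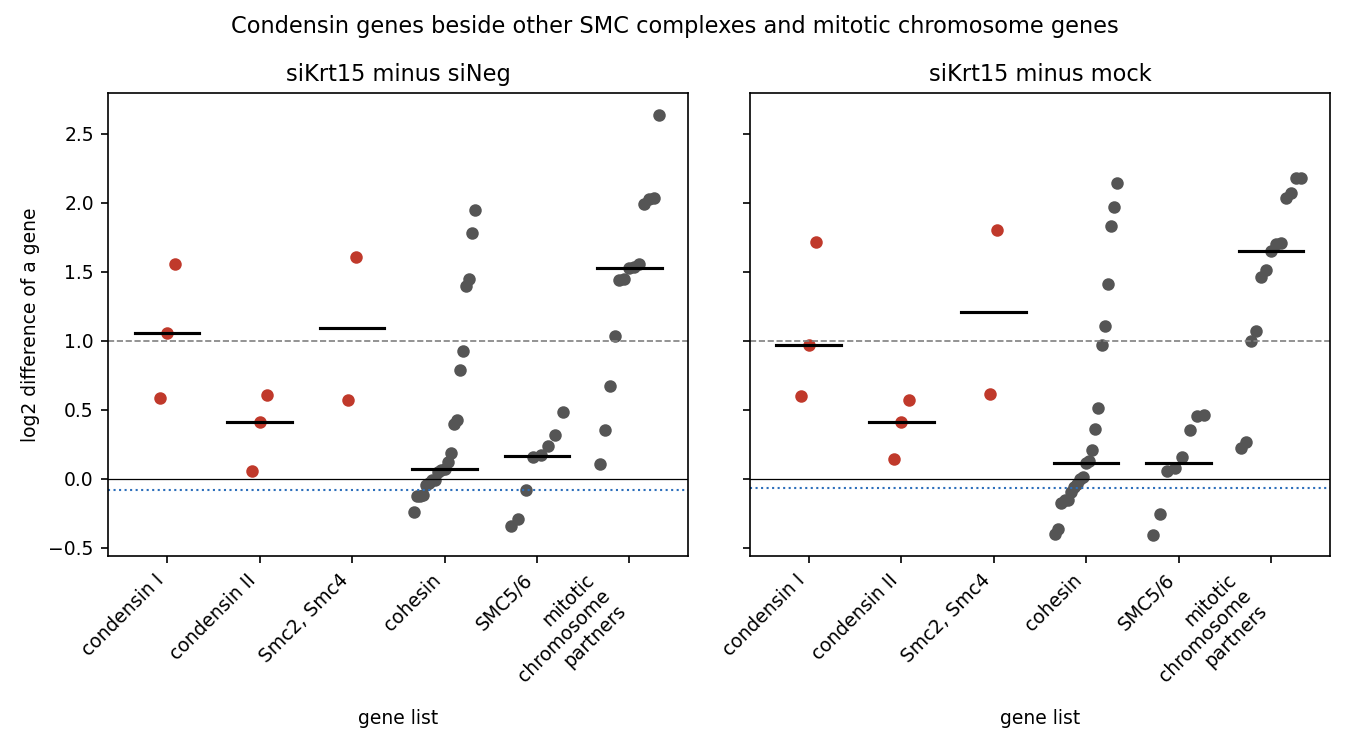
Log2 difference (vertical axis) of each measured gene in 6 lists, for siKrt15 minus siNeg (left) and siKrt15 minus mock (right), with black bars at list medians, the dashed line at 2-fold and the blue dotted line at the median of all genes. The condensin I median (1.06 against siNeg) stands above that of condensin II (0.41). Most cohesin and all SMC5/6 genes lie below 2-fold, as most of all measured genes do.

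The genes whose profile over the 3 arrays lay nearest to the mean of the 8 measured members (0.81 for siKrt15 minus siNeg and 0.05 for siNeg minus mock) were Suv39h1, Fos, Insyn1, Fam229b and Cenpw. Suv39h1 encodes a histone H3 lysine methyltransferase of heterochromatin, Fos an immediate early transcription factor and Cenpw a centromere protein. Likeness was the Euclidean distance over the 2 differences, and 25 of 8451 genes lay within 0.1. With 3 arrays, such a profile holds little information.

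Promoters were compared because part of the set moved together. The RefSeq table (GRCm38.p6) gives 8 windows for 7 of the 9 genes, each from 250 bases before to 50 bases after a transcription start, with 2 windows for Ncapd3, and none for Smc4 or Esco2. Both strands were searched for the cell cycle homology region (CHR, TTTGAA or TTCGAA), the CCAAT box (CCAAT) and E2F-type words (TTTGGCGC, TTTCGCGC, TTTCCCGC or TTCCCGCC), some of which overlap each other. A CHR word was in 6 of 8 windows, against 19.2% of 32851 windows in the table. A CCAAT word was in 3 of 8, against 37.4%, and an E2F word in 3 of 8, against 3.49%. The genes were chosen with earlier results of these data known, so an excess of a word in their windows is not a test. The 4 printed below are the 250 bases before the start, 5′ to 3′ on the gene's strand, with CHR and CCAAT matches on either strand in capitals. They belong to the same 4 condensin genes as the probes printed above.
Smc2, chr4:52438971-52439220, plus strand: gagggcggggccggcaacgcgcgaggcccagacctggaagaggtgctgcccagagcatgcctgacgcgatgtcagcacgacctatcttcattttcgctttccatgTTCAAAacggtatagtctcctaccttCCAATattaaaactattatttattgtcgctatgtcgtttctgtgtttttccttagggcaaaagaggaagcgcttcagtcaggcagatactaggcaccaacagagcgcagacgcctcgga
Ncaph, chr2:127133955-127134204, minus strand: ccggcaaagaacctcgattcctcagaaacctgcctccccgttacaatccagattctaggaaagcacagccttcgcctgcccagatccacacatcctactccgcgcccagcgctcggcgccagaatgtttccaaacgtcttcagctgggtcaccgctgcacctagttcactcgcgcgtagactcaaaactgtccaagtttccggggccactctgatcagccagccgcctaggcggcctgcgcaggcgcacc
Ncapg, chr5:45669675-45669924, plus strand: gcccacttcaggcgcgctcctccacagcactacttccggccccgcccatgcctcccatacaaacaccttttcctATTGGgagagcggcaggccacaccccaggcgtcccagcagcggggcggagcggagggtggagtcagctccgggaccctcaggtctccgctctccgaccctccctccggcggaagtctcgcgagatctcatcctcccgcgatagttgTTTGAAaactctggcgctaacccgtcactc
Ncaph2, chr15:89355469-89355718, plus strand: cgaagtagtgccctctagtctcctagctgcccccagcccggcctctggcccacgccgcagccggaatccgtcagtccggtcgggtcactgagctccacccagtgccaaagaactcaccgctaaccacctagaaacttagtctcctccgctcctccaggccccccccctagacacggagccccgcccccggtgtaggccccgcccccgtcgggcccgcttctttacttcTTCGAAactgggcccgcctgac

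Matches did not follow the size of the difference. Ncaph, more than 2-fold higher in siKrt15, held none of the words in its window, and Ncaph2, with the smallest, held a CHR word 22 bases before the start. Ncapg held a CHR word 30 bases before the start, and Ncapg2 one 18 bases before it. Ncapg also held 1 CCAAT word and 1 E2F word, and Ncapg2 also held 3 E2F words, some overlapping. Smc2 held CHR words 145 bases before and at base 27 after the start. Ncapd2 held a CHR word, 3 CCAAT words and 1 E2F word. A match describes these letters and is not a binding site, and the absence of a match says nothing of the factor.

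The labelled cell type was checked against marker genes. All 6 epithelial markers were well above background on each array. Their log2 differences ran from −0.32 (Trp63) to 0.53 (Epcam) against siNeg and from −0.56 to 0.60 for the same genes against mock, and the medians were −0.13 and −0.14. Of 6 mesenchymal markers, 5 were above background in siKrt15, 5 in siNeg and 6 in mock, with summed signals of 286, 310 and 326. Vim read 3.74 in siKrt15, 3.94 in siNeg and 7.56 in mock, above background in mock only. The other 5 moved apart against siNeg, with Col1a1 at 0.85, Twist1 at −0.02, Col3a1 at −0.80, Pdgfra at −0.94 and Dcn at −1.07. Against mock these were at 0.98, 0.24, −0.38, −0.67 and −1.20. Of 5 endothelial and blood markers on the array, 3 were above background (Pecam1, Ptprc and Cd3e), and Cdh5 and Kdr were not on any array. Their summed signals were 1436 in siKrt15, against 1342 in siNeg and 1610 in mock. The part of these markers in the condensin differences was not tested. Well above background were 67.3% of spots in siKrt15, 69.2% in siNeg and 69.0% in mock, and no member spot was saturated. Higher genes made up 46.0% of those past 2-fold against siNeg, but 78.1% with normexp, 72.6% with quantile normalization, 74.1% with the signal trend removed, 86.3% with spike-in scaling and 75.7% with the stricter filter on dim probes. With no filter on dim probes it was 18.7%, and with the percentile taken over all spots 39.4%. Against mock the share was 63.7%, and it was 81.0% with normexp, 82.2% quantile, 80.2% trend, 81.5% spike-in, 78.3% stricter, 29.4% unfiltered and 55.7% over all spots. For siNeg against mock it was 88.6%, but 54.3% with spike-in scaling, 79.1% with the trend removed, 66.9% unfiltered and 100% with the stricter filter.

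**Figure D4:**
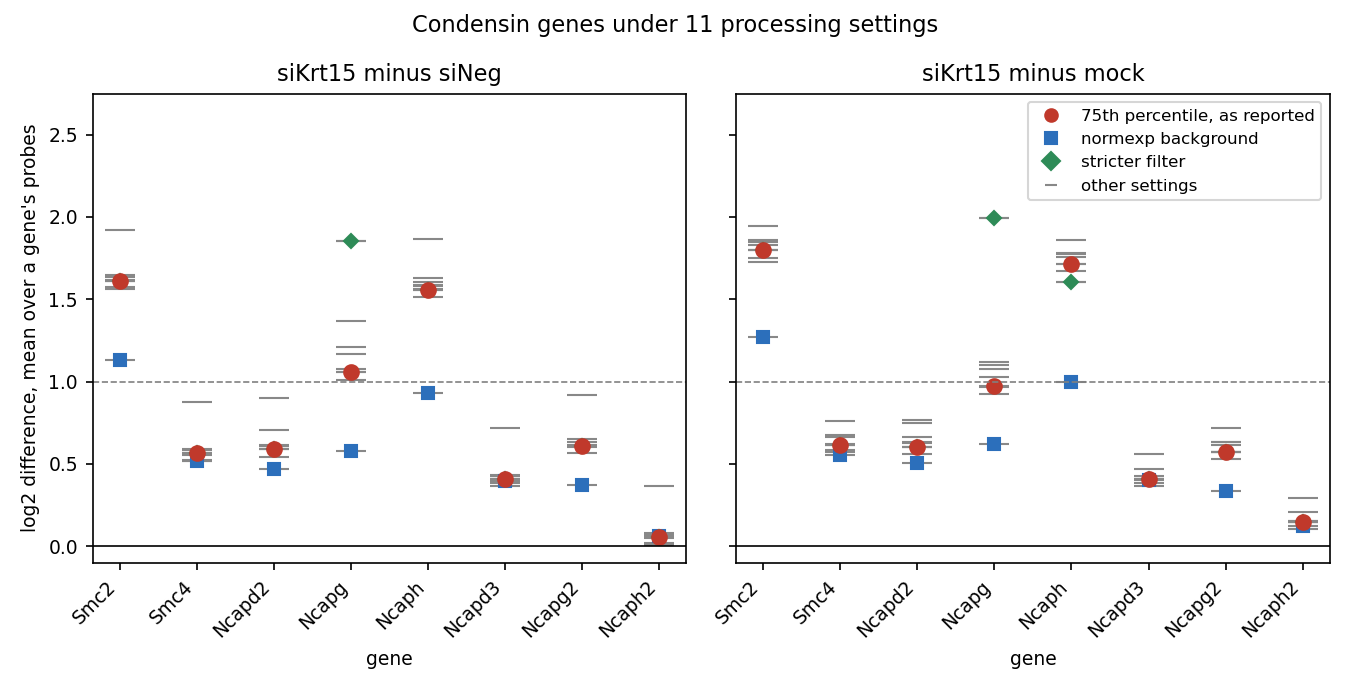
Log2 difference (vertical axis) of the 8 measured condensin genes from siNeg (left) and mock (right) under all 11 settings, with circles for the 75th percentile scaling, squares for normexp, diamonds for the stricter filter where it is not hidden by a circle, and dashes for the others. Every value is above 0, Smc2 stays above 2-fold throughout, and Ncapg spreads from 0.58 to 1.86 against siNeg.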

How the data were processed

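The arrays are Agilent mouse arrays read in 1 colour (Cy3), per the labels' protocols. Spots were quantified with Feature Extraction 11.5.1.1, per the submitters' processing notes, under protocol GE1_1105_Oct12, per the file headers. The deposited scanner files give background-subtracted intensity per spot. The deposited value table holds log2 values, with a scale and centring that the authors' sources used here do not state. Set against the scanner files, each column followed log2 processed signal minus a constant (7.75 in siKrt15, 7.49 in siNeg and 7.57 in mock) near the 75th percentile, with 92.4%, 94.0% and 93.8% of probes within 0.01. Its medians were −3.72, −3.51 and −3.52.

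Outlier spots (85, 68 and 69) were left out, spots of a probe were averaged as log2, and each array's 75th percentile was subtracted. Names came from RefSeq (GRCm38.p6) through accession, symbol or synonym, and 12865 without a match were left out of gene counts. Gene differences are means over the probes well above background on both arrays. Replicate spots of 300 probes had a median SD of 0.05 (log2). With 1 array per group, the number of arrays limits the precision and no p-value was computed. Named genes were all members, Krt15, up to 4 genes per list with the largest difference from siNeg, and the 5 nearest profiles. Securin, the core cohesin subunits, Esco1, Ddx11, Mcph1, Top2b and the markers named singly were chosen after their values were seen. The members and lists were chosen with earlier results of these data known. The steps were tested on simulated arrays. Alternatives used limma 3.58.1 (normexp) and statsmodels 0.14.6 (trend).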

Additional observations from a re-analysis of the deposited data

How the results depend on the processing

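All 8 measured members stayed above 0 in siKrt15 against both controls in all 10 alternatives, or 80 of 80 values for each control, and 66 and 69 of these moved by less than 1 error-model SD. In siNeg against mock 65 of 80 kept their sign. The count of members at least 2-fold higher was 3 against siNeg, and 4 with no filter on dim probes, where Esco2 has a value. Against mock it was 2, and also 2 with the percentile over all spots and the deposited value table, but 3 with quantile, median or spike-in scaling, the trend removed, no filter, the stricter filter or the brightest probe. With normexp it was 1 in each, and at a 1.5-fold threshold 5 in each, against 4.80% and 5.83% of all genes. The gap between condensin I and II, 0.71 against siNeg and 0.72 against mock, was 0.38 and 0.42 with normexp, 0.98 and 1.02 when a signal of at least 20 was asked for, and 1.05 and 1.08 with the brightest probe per gene, both of which leave out the dim Ncapg probe. Spike-in scaling moved the median of all genes by 0.31 against siNeg, 0.15 against mock and −0.16 for siNeg against mock, and no filter on dim probes moved it by −0.12 against siNeg. Without that filter Esco2 stood at 2.40 and 3.05. Of all genes, 291 were at least 2-fold higher than in siNeg, but 82 with normexp, 625 with spike-in scaling and 477 with no filter, and 342 were lower, but 23 with normexp, 145 after quantile normalization, 99 under spike-in scaling, 135 with the trend removed, 2070 with no filter and 65 with the stricter one. Against mock 374 were higher (102 with normexp, 646 with no filter) and 213 lower (24 with normexp, 103 quantile, 116 spike-in, 119 trend, 1549 no filter, 73 stricter). In siNeg against mock 62 were higher (0 with normexp, 25 spike-in, 34 trend, 836 no filter, 4 stricter) and 8 lower (0 with normexp or the stricter filter, 21 spike-in, 413 no filter). The cause of these shifts was not tested. No paired analysis was possible because each group has 1 array, and no array could be left out. Signals near background, as for Esco2 and the dimmer Ncapg probe, limit what can be measured.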
